A study of Mus musculus with 32 samples.

Results

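A set of 9 genes of the ubiquitin pathway was followed through motor neurons and glia of mice carrying mutant SOD1 or mutant tau. They were the ubiquitin hydrolases Uchl1, Uchl3 and Uchl5, the proteasome-bound deubiquitinase Usp14, the activating enzyme Uba1, the conjugating enzyme Ube2n, the polyubiquitin gene Ubb, the ubiquitin-like modifier Nedd8 and the autophagy receptor Sqstm1. The genes were chosen by name, and every probe on the array that carried one of these names was kept. This gave 15 probes of 9 genes, out of 41174 probes and 27573 genes or single unnamed probes in all. Uchl1 had 2 probes, Usp14 and Ube2n had 3 each, Uba1 had 2 and the other 5 genes had 1 each. Each gene's values come from its brightest probe, with any further probes given beside it.

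Ubiquitin is a small protein that is attached to other proteins in steps: an E1 enzyme activates it, an E2 enzyme carries it and an E3 ligase places it on the target. Chains of ubiquitin send proteins to the proteasome or to autophagy, and deubiquitinases trim the chains and return free ubiquitin. Neurons hold very large amounts of Uchl1 protein, also known as PGP9.5, which histologists use to stain nerve cells. Inclusions containing ubiquitin and Sqstm1 protein are a feature of motor neuron disease and of tauopathy.

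SODmn and SODgl compared B6SJL-Tg(SOD1-G93A)1Gur female mice with B6SJL littermates at 8 weeks of age, in lumbar anterior horn motor neurons and in the cells surrounding them. TAUmn and TAUgl made the same comparison at 16 weeks between B6D2F1-Tg(TAU-P301L) females and B6D2F1 littermates. Control captures are called nonSODmn, nonSODgl, nonTAUmn and nonTAUgl. Each comparison held 4 littermate pairs, with about 500 laser-captured cells per mouse and 2 arrays per pair with the dyes exchanged, so that n is 4 pairs and 32 arrays were used in all. The mutant protein, strain and age differed together between the colonies, and the promoters driving the transgenes are not given in the sources used here. Cells were picked by position and Nissl stain, so a capture can hold RNA of neighbouring cells, and fewer cells of a type and less RNA per cell cannot be told apart.

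The captures followed their labels in part. In control mice 5 of 9 tested neuron markers and 5 of 11 tested motor neuron markers were higher in motor neuron captures, with 0 and 1 higher in glia. Of the glial lists, 6 of 11 astrocyte and 5 of 9 oligodendrocyte markers were higher in glia, with 0 of either higher in motor neurons. Interneuron markers also went toward the motor neuron captures, 4 of 6 tested, with 0 toward glia. Of 10 tested microglia markers only 2 went toward glia, with 0 toward motor neurons. By the same test, 27.4% of all 13024 genes went toward motor neurons and 12% toward glia. The extracts of SODmn pair 3 stood apart. Over all genes, the levels of the SOD1-G93A extract correlated at 0.70 with the mean of the other 3 extracts of its group, and its littermate control at 0.74, against 0.83 to 0.98 for all other extracts. Its neuron markers averaged 7.37 in the transgenic and 7.50 in the control extract (log2 intensity), against 8.67 to 8.87 and 8.81 to 8.98 in the other SODmn and nonSODmn extracts. Astrocyte markers were also low in these extracts, at 7.23 and 7.12, against 7.63 to 8.40 and 7.78 to 8.10 in the others. Oligodendrocyte markers were at 7.13 and 6.85, against 7.66 to 8.29 and 7.75 to 8.03. Microglia markers were at 6.61 in both, not below the others. Between 4366 and 27426.5 probes were well above background in both channels of an array (median of the 2 arrays of a pair). The dye-swapped arrays of a pair correlated at -0.74 to 0.67 over tested genes. In 5 of 16 pairs the correlation was below 0, namely SODgl pairs 1 and 2, TAUmn pair 3, and TAUgl pairs 1 and 3. Cell type, scan and scanner software version cannot be told apart, because motor neuron arrays were read with 1 version and glia arrays with another.

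In control animals, 3 of the 7 genes tested were higher in motor neurons than in glia: Usp14, Ubb and Uchl5. None was higher in glia. Usp14 was bright enough for the test in motor neurons alone. Of all 13024 genes tested, 39.4% were called, with 27.4% higher in motor neurons and 12% higher in glia (limma with Benjamini-Hochberg adjusted p under 0.05), and the median of all tested genes was 0.11 on the log2 scale toward motor neurons. Uchl1, Nedd8 and Ube2n joined the called genes when nonSODmn extract 3 was left out, which raised the count to 6 of 7. Calls over all genes also moved with the setting, from 1024 to 7290 over all settings run, against 5134 in the main one. The share of all genes called without nonSODmn extract 3 is not given here. The rise to 6 of 7 can thus not be read as particular to these members. Uchl3 and Uba1 were well above background in too few control extracts to be tested. With no filter on dim probes Uba1 was called lower in motor neurons, at -0.50 (adjusted p = 0.0124), and Uchl3 higher, at 0.29 (adjusted p = 0.00260).

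**Figure D1:**
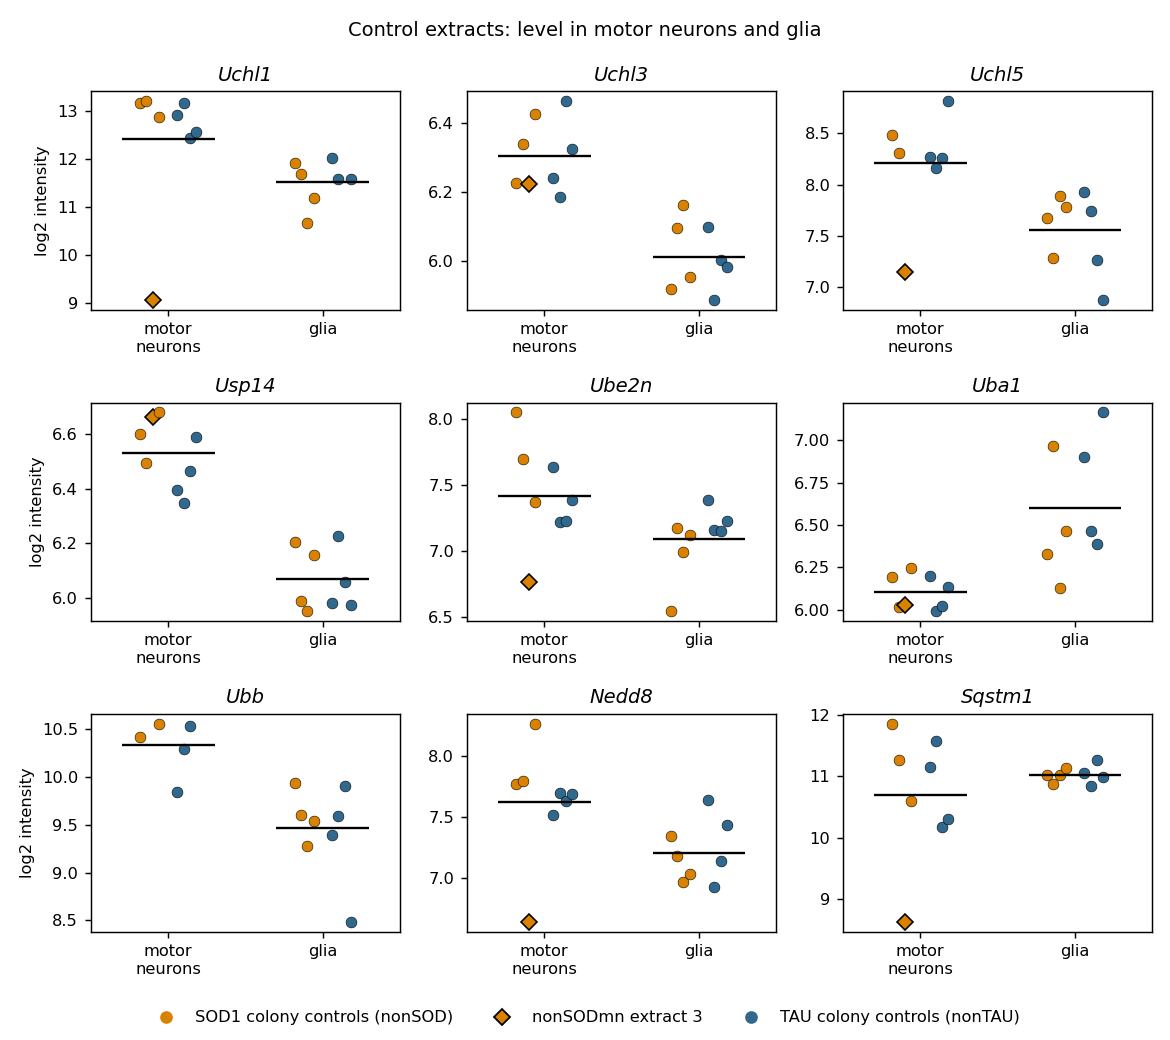
Level (log2 intensity) of each gene's brightest probe in the control extracts, motor neurons left of glia, 8 extracts per cell type where all gave a value. Points are extracts, orange from nonSOD and blue from nonTAU mice, the diamond marks nonSODmn extract 3 and lines are means. Apart from that extract, Uchl1 lay between 12.44 and 13.19 in motor neurons and between 10.65 and 12.01 in glia.

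The brighter Uchl1 probe, A_51_P475049 (chr5:66966304-66966364, plus strand, mouse build mm8 as in the array files), separated the cell types apart from 1 extract. Its level in control motor neurons had a lowest value of 9.07, a median of 12.89 and a highest value of 13.19, against 10.65, 11.58 and 12.01 in control glia, where 1 of 8 extracts gave no value. Only nonSODmn extract 3, at 9.07, fell below the glia. With it the difference was 0.87 (SE 0.50, limma adjusted p = 0.184), and without it 1.38 (adjusted p = 0.000193). Without it the lowest motor neuron extract, at 12.44, lay above the highest glia extract, at 12.01. How many of all genes separate without that extract was not counted. The dimmer probe, A_52_P24308 (chr5:66961782-66962873, mm8), spanned 1092 bases of the genome. It had 6.48, 6.84 and 7.14 as lowest, median and highest level in motor neurons, against 5.82, 6.15 and 6.32 in glia. These 2 sets of 8 extracts did not overlap, with a difference of 0.69 (SE 0.10, limma adjusted p = 0.000149 over all probes tested). By brightest probe, 5.38% of the 9133 tested genes with a value in all 16 control extracts lay higher in motor neurons without overlap. In glia the dimmer probe was well above background on only 5 of 16 arrays, against 14 of 16 in motor neurons. The dimmer probe was tested only because 6 of 8 motor neuron extracts were bright enough, against 1 of 8 in glia. Its test was thus chosen through the group where it was high.

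In the transgenic extracts the brighter Uchl1 probe stood at 0.20 for motor neurons minus glia, with SODmn extract 3, at 8.97, included. No value without that extract was computed. The probe was not called in this setting (limma adjusted p = 0.790), and whether this differs from the control extracts was not tested. Its mean levels, from high to low, were 12.76 ± 0.33 in nonTAUmn, 12.72 ± 0.76 in TAUmn, 12.63 ± 0.32 in TAUgl, 12.07 ± 2.01 in nonSODmn, 11.82 ± 1.91 in SODmn, 11.72 ± 0.24 in nonTAUgl, 11.53 ± 0.44 in SODgl and 11.35 ± 0.55 in nonSODgl (log2 intensity, SD, n = 4 except 3 in TAUgl and nonTAUgl). Each pair of neighbours in that order differed by less than the SD of at least 1 of them. The 3 TAUgl extracts with a value, at 12.26 to 12.84, lay above the 3 nonTAUgl extracts at 11.58 to 12.01. They reached into the range of the nonTAUmn extracts at 12.44 to 13.16. Pair 3 gave no value in either glia group, and how many of all genes separate this way was not counted. The ratio within these pairs was not called, as given below.

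Ubb, one of the genes that encode ubiquitin as a chain of repeats, had the largest difference of the tested members in the main setting. Its level in control motor neurons ran from 9.84 to 10.56 with a median of 10.42 (5 extracts, since 3 gave no value), against 8.48 to 9.93 with a median of 9.56 in 8 glia extracts. The ranges overlapped between 9.84 and 9.93, and the difference was 0.89 (SE 0.21, limma adjusted p = 0.00593). With outlier spots kept, all 8 motor neuron extracts gave a value and the difference was 0.63 (limma adjusted p = 0.105). In that setting it was below Uchl1 at 0.89 and Uchl5 at 0.71. Its probe, A_52_P606297 (chr11:62369140-62369199, mm8), can share signal with other genes of similar sequence.

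Promoters are shown for Uchl1 and Ubb, whose levels differed most between the cell types in the main setting. The sequences are the 250 bases before the transcription start from RefSeq, build GRCm38.p6, plus strand, at chr5:66675871-66676120 for Uchl1 and chr11:62550921-62551170 for Ubb, where the first of its listed starts was taken. Capitals mark matches to the motifs searched on both strands. These were the TATA box with letters TATAAA (in 12.4% of all windows), the CCAAT box, the GC box with letters GGGCGG (32.7%), the heat shock element pair with letters GAANNTTC, the antioxidant response element with letters TGACNNNGC (10.2%), the cAMP response element with letters TGACGTCA (1.55%) and the E-box with letters CACGTG (6.02%). Each window held 1 match.
Uchl1: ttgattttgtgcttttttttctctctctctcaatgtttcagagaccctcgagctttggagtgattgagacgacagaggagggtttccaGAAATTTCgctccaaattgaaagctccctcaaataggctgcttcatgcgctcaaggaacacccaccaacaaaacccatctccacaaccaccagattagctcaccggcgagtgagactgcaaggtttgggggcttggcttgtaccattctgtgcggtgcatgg
Ubb: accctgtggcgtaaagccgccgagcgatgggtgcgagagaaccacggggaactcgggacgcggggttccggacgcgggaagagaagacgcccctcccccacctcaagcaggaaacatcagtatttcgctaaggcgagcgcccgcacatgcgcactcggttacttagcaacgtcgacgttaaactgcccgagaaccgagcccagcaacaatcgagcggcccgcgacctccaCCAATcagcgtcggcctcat
The Uchl1 window held 1 heat shock element pair, whose first base lies 162 bases before the start, and such a match was present in 6.69% of all 32851 windows of that length. The Ubb window held 1 CCAAT box starting 20 bases before the start, as did 33.8% of all windows. The data do not bear on whether any factor binds there.

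The other deubiquitinases followed the same side in control captures. Usp14, which trims chains at the proteasome, had 6.35, 6.54 and 6.68 as lowest, median and highest level in motor neurons, against 5.95, 6.02 and 6.23 in glia. The groups did not overlap, as for 5.38% of the 9133 tested genes with a value in all 16 control extracts. The difference was 0.46 (SE 0.06, adjusted p = 0.000121), and it was 1.19 on the scanner software's processed signals (adjusted p = 0.00124). In glia the probe was well above background on 8 of 16 arrays, and probes dim in every control channel differed by 0.02 between the cell types. Usp14 was tested only through motor neurons, where 7 of 8 extracts were bright enough, against 2 of 8 in glia. Of the other 2 Usp14 probes, 1 lay 0.18 higher and 1 lay 0.22 lower in motor neurons, and neither was bright enough to be tested. Uchl5, a hydrolase of the proteasome and of a chromatin remodelling complex, had a level of 7.15 to 8.81 with a median of 8.26 in 7 motor neuron extracts, against 6.88 to 7.92 with a median of 7.70 in 8 glia extracts. Its difference of 0.65 (SE 0.22, limma adjusted p = 0.0305) became 0.85 (adjusted p = 0.00122) without nonSODmn extract 3, when the groups no longer overlapped. How many of all genes separate without that extract was not counted. Uchl5 was called in 16 of 27 alternatives. It was not on processed signals (0.47, adjusted p = 0.331), with quantile normalization (0.57, adjusted p = 0.0694) or in the SOD1 colony alone (0.33, adjusted p = 0.536). Leaving out any 1 of 7 other control extracts moved its adjusted p above 0.05, to 0.0507 to 0.0672. Uchl3, which also matures NEDD8, read 6.19 to 6.46 in motor neurons and 5.89 to 6.16 in glia without overlap. The 5.38% given for Usp14 covers tested genes only, and these do not include Uchl3. Uchl3 was well above background on both arrays in 3 motor neuron extracts and 0 glia extracts. Its probe may also read the closely related mouse gene Uchl4.

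By brightest probe, the remaining genes were not called or not tested in the main setting. Nedd8, whose attachment switches on cullin ligases, had 6.63, 7.69 and 8.27 as lowest, median and highest level in motor neurons, against 6.92, 7.16 and 7.64 in glia. Its difference was 0.42 (SE 0.18, adjusted p = 0.0708) with nonSODmn extract 3 and 0.57 (adjusted p = 0.00223) without it. Ube2n, the E2 that builds ubiquitin chains used in signalling and DNA repair, differed by 0.32 (SE 0.16, adjusted p = 0.107), or by 0.42 (adjusted p = 0.0225) without that extract. Another Ube2n probe, A_52_P146164, lay 0.28 higher in motor neurons without overlap (limma adjusted p = 0.000356 over all probes tested). By brightest probe, 5.38% of 9133 tested genes lay higher in motor neurons without overlap. The remaining Ube2n probe, 0.16 lower, was too dim to be tested. A_52_P146164 was tested only through motor neurons, where 4 of 8 extracts were bright enough, against 1 of 8 in glia. Sqstm1, which links ubiquitin chains to the autophagosome, was the only tested gene with a lower mean in motor neurons. Its level had 8.63, 10.87 and 11.85 as lowest, median and highest value in motor neurons, against 10.84, 11.02 and 11.25 in glia, so that the glia lay within a narrower range. The difference was -0.33 (SE 0.35, adjusted p = 0.463), and -0.02 without nonSODmn extract 3. The brighter probe of Uba1, the main ubiquitin E1, averaged 6.10 in motor neurons and 6.60 in glia, while the dimmer one lay 0.14 higher in motor neurons. Neither was tested.

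Other genes of the pathway showed where these members sat among their relatives. Of 126 tested genes on 6 pathway lists, 44 (34.9%) had higher levels in control motor neurons and 12 in control glia, with a median of 0.21 against 0.11 for all genes tested. The shares over all genes tested were 27.4% and 12%. By list, the share toward motor neurons was lowest for deubiquitinases at 19.4% and highest for E2 genes at 57.7%. It was 23.1% for receptors and shuttles and 30.8% for ubiquitin-like modifiers and their machinery. Among 26 tested E2 genes, 15 passed toward motor neurons and 2 toward glia, such as Ube2e1 at 0.76 (adjusted p = 0.000734) and Ube2g1 at 0.48 (adjusted p = 0.00172). Of 16 ligases studied in neurons, 8 passed toward motor neurons and 1 toward glia, such as Mycbp2, a large ligase of axons and synapses, at 0.84 (adjusted p = 0.00154). The 36 deubiquitinases split more evenly, with 7 higher in motor neurons, such as Usp33 at 1.44 (adjusted p = 0.000203), and 5 in glia, such as Usp11 at -0.87 (adjusted p = 0.00424). Of 9 genes of the list of ubiquitin and E1 enzymes, Uba3, a subunit of the NEDD8 E1, stood at 1.097 (adjusted p = 0.000586) and its partner Nae1 at 0.77 (adjusted p = 0.0129). Uba2, a subunit of the SUMO E1, was also higher in motor neurons at 0.46 (adjusted p = 0.0325). Ubiquitin-like modifiers and their machinery had 8 of 26 called toward motor neurons and 2 toward glia, with the cullin Cul3 at 0.69 (adjusted p = 0.000474) and Fau at -0.69 (adjusted p = 0.000499). Ubiquitin receptors and shuttles had 3 of 13 and 1, with Nbr1, an autophagy receptor related to Sqstm1, at 0.80 (adjusted p = 0.00767) and Tollip at -0.80 (adjusted p = 0.0449).

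**Figure D2:**
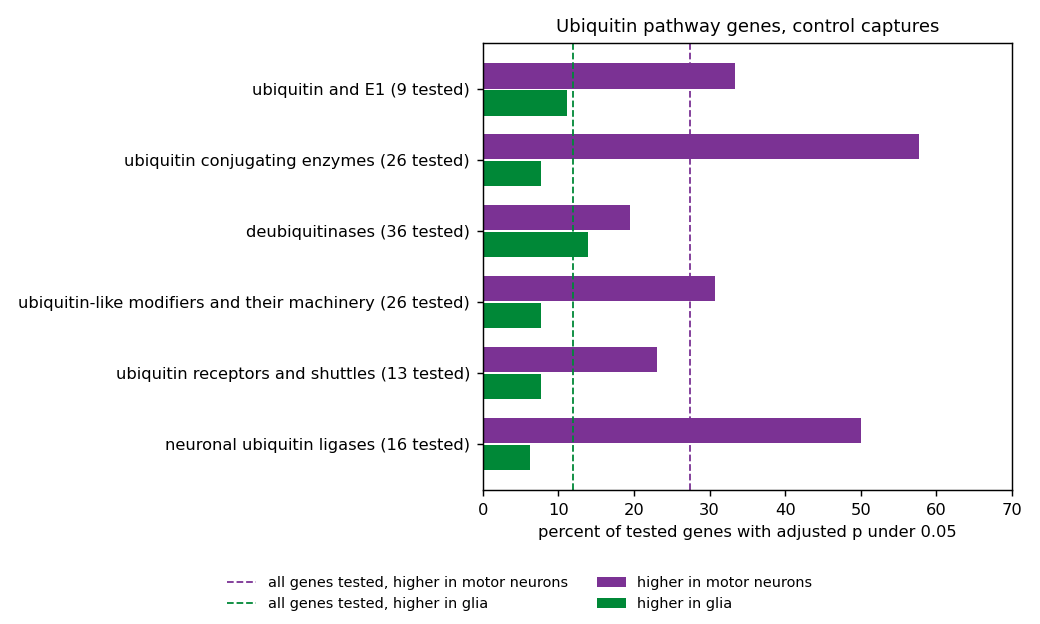
Percent of the tested genes of each pathway list with adjusted p under 0.05, purple for higher in control motor neurons and green for higher in control glia. Dashed lines give the same over all 13024 genes tested, 27.4% and 12%. The E2 and neuronal ligase lists exceed the purple line most.

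Between transgenic mice and their littermates, 0 of the 9 genes passed the threshold in any of the 4 comparisons (limma with Benjamini-Hochberg adjustment). In SODmn 8 genes were tested and 2 had an unadjusted p under 0.05, Usp14 and Nedd8, as had 10.5% of all genes tested, with a lowest adjusted p of 0.372, while 0.00753% of all 13273 genes tested were called. In SODgl 7 were tested and 0 had an unadjusted p under 0.05, against 16.2% of all genes, with 0.0956% of 10459 genes called, 0.0669% higher and 0.0287% lower. In TAUmn 7 were tested, again with 0 against 4.22% of all genes, and 0% of 11645 genes were called. In TAUgl 6 were tested and 2 had an unadjusted p under 0.05, Uchl1 and Sqstm1, as had 13.7% of all genes, with a lowest adjusted p of 0.224 and 0% of 8914 genes called. The medians of the tested members were -0.15 in SODmn, 0.01 in SODgl, 0.06 in TAUmn and 0.08 in TAUgl (log2 ratio of transgenic over control), against 0.00, 0.02, -0.01 and 0.00 for all genes tested.

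**Figure D3:**
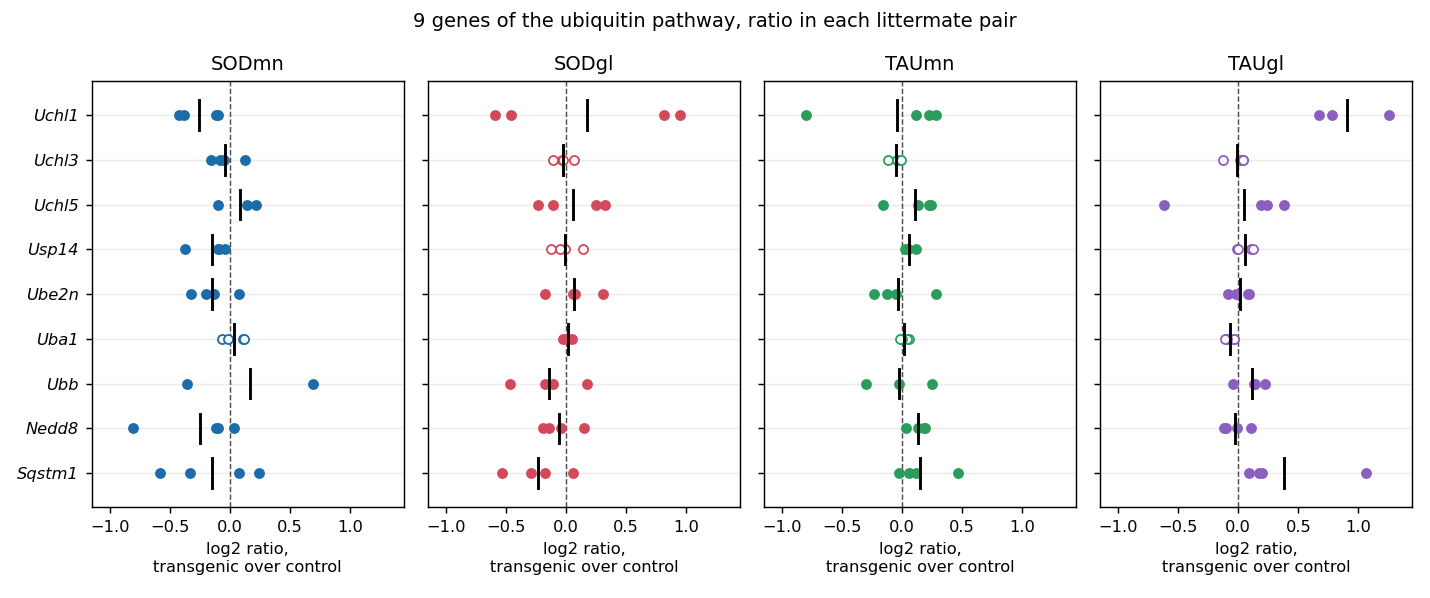
Log2 ratio of transgenic over control (x axis) for each gene's brightest probe (rows) in each littermate pair of the 4 comparisons (panels). Filled points belong to tested genes, open points to genes too dim to be tested there, and vertical bars are means over the pairs. The widest spread is that of Uchl1 in SODgl and the pair farthest above 0 is Uchl1 in TAUgl pair 4 at 1.25.

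Uchl1 had the largest mean ratio of the 9 genes, in TAUgl. The brighter probe read 0.78, 0.67 and 1.25 in TAUgl pairs 1, 2 and 4, and pair 3 had no value because 1 of its arrays carried an outlier mark on that spot. All 3 measured pairs lay above 0, at a mean of 0.90 ± 0.31 (SD, n = 3), a 1.87-fold ratio (limma adjusted p = 0.224). Agreement between the 2 arrays varied, since pair 1 rested on -0.26 and 1.83, pair 2 on 0.84 and 0.50 and pair 4 on 1.62 and 0.89. The remaining array of pair 3 read 0.13, and with the marked spot kept the mean over 4 pairs was 0.74 (adjusted p = 0.258). Over the 17 alternatives the mean ran from 0.73 to 1.47, above 0 in each, with adjusted p between 0.0978 and 1.00. Some of these alternatives, such as no filter, change only the test and leave the mean at 0.90. The dimmer probe read 0.26, -0.0016, 0.09 and 0.04 in TAUgl and was well above background in 3 of 8 extracts, too few to be tested.

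In SODgl the pairs split. Pairs 1 and 2 read -0.46 and -0.59 and pairs 3 and 4 read 0.81 and 0.95, so that 2 lay well below and 2 well above 0, at a mean of 0.18 ± 0.82 (SD, n = 4, adjusted p = 0.806). Pairs 3 and 4 shared scan 3 and averaged 0.88 (limma adjusted p = 0.102), while pairs 1 and 2 came from 2 other scans. Dye-swapped arrays correlated at 0.48 and 0.50 in pairs 3 and 4, and at -0.08 and -0.46 in pairs 1 and 2. Whether scan had a part in the split was not tested. The dimmer probe, well above background in 1 of 8 extracts, read 0.05, -0.13, 0.02 and -0.02.

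In motor neurons Uchl1 lay below 0 in every SODmn pair on both probes. The brighter probe read -0.12, -0.38, -0.09 and -0.42, at a mean of -0.25 ± 0.17 (SD, n = 4, adjusted p = 0.718), and -0.31 without pair 3. The dimmer probe read -0.53, -0.09, -0.04 and -0.31, at a mean of -0.24 ± 0.23 (limma adjusted p = 0.283 over all probes tested). Processed signals, median centring and the authors' series matrix gave larger values for the brighter probe, of -0.56, -0.75 and -0.62. In TAUmn the brighter probe read 0.28, 0.11, -0.80 and 0.23, with pair 3 far below the other 3 pairs, at a mean of -0.04 ± 0.51 (adjusted p = 0.995). Across the 15 pairs with both values the 2 probes correlated at 0.38 and had the same sign in 11 pairs.

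**Figure D4:**
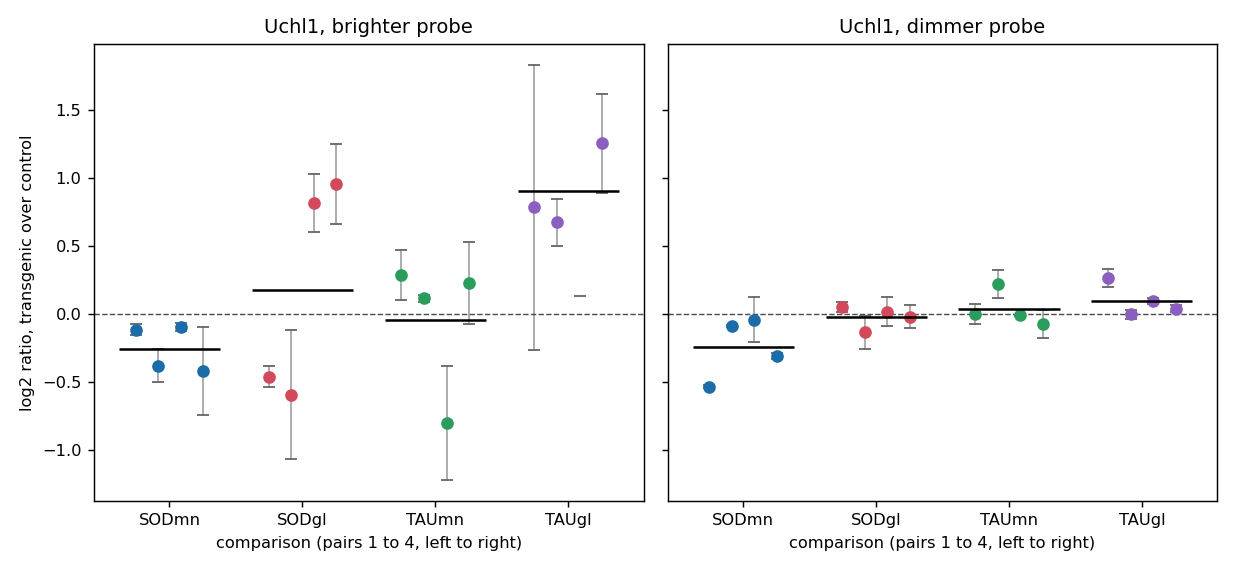
Log2 ratio of transgenic over control for the brighter (left) and dimmer (right) Uchl1 probe. Points are littermate pairs 1 to 4 from left to right within each comparison, grey ticks joined by a line are the 2 dye-swapped arrays of a pair, and black lines are means. TAUgl pair 1 rests on arrays at -0.26 and 1.83, and TAUgl pair 3 has only 1 array for the brighter probe.

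Uchl1 ratios moved with those of neuron markers from pair to pair. The mean ratio of the tested neuron markers was 0.30, 0.23, 0.09 and 0.16 in TAUgl pairs 1 to 4, and 5 of 7 markers had a mean above 0. It was -0.35, -0.07, -0.14 and -0.11 in SODmn, where 8 of 9 markers lay below 0. In SODgl it was -0.11, -0.20, 0.51 and -0.21, so that pair 4, at 0.95 for Uchl1, did not follow it. In TAUmn it was 0.17, 0.11, -0.22 and 0.01. Within SODmn, pair 1 was lowest for the markers but read -0.12 for Uchl1, against -0.42 in pair 4. Within TAUgl, pair 4 was highest for Uchl1 at 1.25 but lay below pairs 1 and 2 for the markers. Over the 15 pairs with a Uchl1 value the correlation was 0.64 with the neuron marker mean, 0.60 with the motor neuron marker mean, -0.31 with that of interneurons, -0.45 with that of astrocytes, -0.52 with that of oligodendrocytes and -0.58 with that of oligodendrocyte precursors. All of these genes were read on the same arrays, so the points share each pair's RNA and dye effects. In TAUgl 10 of 11 astrocyte and 8 of 9 oligodendrocyte markers lay below 0 and 3 of 3 precursor markers above 0, and in SODmn 10 of 10 oligodendrocyte markers lay above 0, with 0 called. Neuron markers were present in glia captures, at a mean level of 7.81 to 8.64 in TAUgl and 7.69 to 8.40 in nonTAUgl, against 8.60 to 8.91 in TAUmn and 8.71 to 8.89 in nonTAUmn. The part of neuronal RNA in the Uchl1 ratios was not tested.

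**Figure D5:**
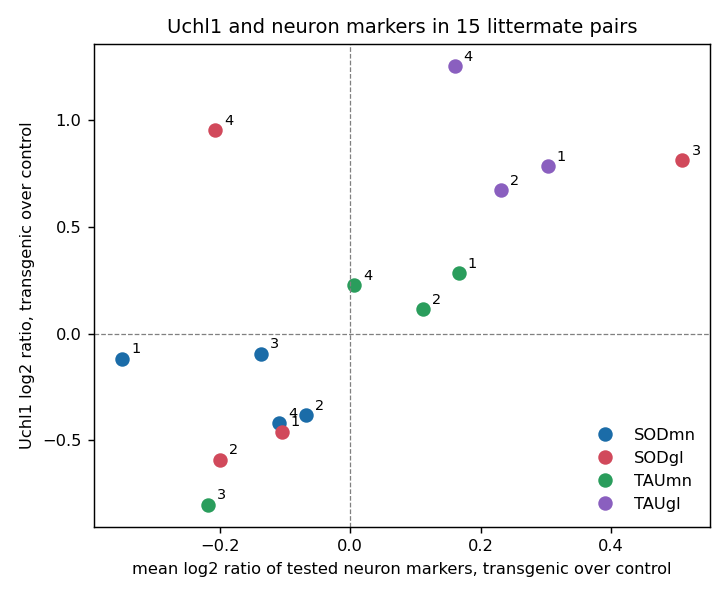
Uchl1 log2 ratio of transgenic over control (y axis) against the mean log2 ratio of the tested neuron markers (x axis) in 15 littermate pairs, coloured by comparison and labelled by pair number. The correlation is 0.64, and SODgl pair 4 sits at -0.21 for the markers and 0.95 for Uchl1.

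The 5 genes whose ratios ran most like those of Uchl1 over these 15 pairs, among 5094 genes tested in all 4 comparisons, were Vat1l (r = 0.91), Klc1 (0.88), Cd151 (0.84), Epb41l3 (0.82) and Mtmr4 (0.81). The median over all 5094 genes was 0.02, and outside the 5% at either end r ran from -0.50 to 0.50. Klc1 is a kinesin light chain. Vat1l had mean ratios of 0.45 in TAUgl, 0.31 in SODgl, -0.08 in TAUmn and -0.32 in SODmn. Among the other members, the correlation with Uchl1 ran from -0.46 for Uchl5 (14 pairs) to 0.41 for Ube2n (15 pairs).

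The deubiquitinases bound to the proteasome showed smaller ratios. Usp14 read -0.37, -0.09, -0.04 and -0.10 in SODmn, below 0 in all 4 pairs, at a mean of -0.15 ± 0.15 (SD, n = 4, limma adjusted p = 0.372). This was -0.07 without pair 1, -0.45 on processed signals and -0.46 in the authors' series matrix. In TAUmn it read 0.12, 0.05, 0.05 and 0.02, above 0 in all 4 pairs, at a mean of 0.06 ± 0.04 (adjusted p = 0.995). All SODmn pairs thus lay below all TAUmn pairs, as for 2 of 6 members with a full set of pairs (Usp14 and Nedd8) and 2.6% of 13216 such genes. The difference of -0.21 (SE 0.07) had a limma adjusted p of 0.387. The other 2 Usp14 probes, too dim to be tested, averaged 0.21 and -0.02 in SODmn, so the 3 probes did not share a sign. In glia Usp14 was too dim to be tested, with means of -0.01 in SODgl and 0.06 in TAUgl. Uchl5 had means of 0.09 ± 0.17 in SODmn (n = 3), 0.06 ± 0.27 in SODgl, 0.11 ± 0.18 in TAUmn and 0.04 ± 0.45 in TAUgl, with adjusted p from 0.864 to 0.995. Uchl3 was tested in SODmn only, at -0.04 ± 0.12 (adjusted p = 0.740).

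Of the genes tested with values in all 4 pairs, 2 of 6 in SODmn lay below 0 throughout, Uchl1 and Usp14, as did 7.98% of all such genes, while 0 lay above 0 throughout, against 5.53% of all. In TAUmn 2 of 6 lay above 0 throughout, Usp14 and Nedd8, against 6.6% of all. In TAUgl 1 of 5 did so, Sqstm1, against 10.5%, and 0 lay below 0 throughout, against 10.2%. In SODgl 0 of 7 kept a sign, against 11% above and 10.7% below 0. With so few members these shares are given as counts only.

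Nedd8 and ubiquitin genes varied around 0. Nedd8 read -0.11, -0.09, 0.03 and -0.81 in SODmn, with pair 4 far below the other 3, at a mean of -0.25 ± 0.38 (limma adjusted p = 0.450), or -0.06 without pair 4. In TAUmn it read 0.18, 0.13, 0.03 and 0.19, above 0 in all 4 pairs, at a mean of 0.13 ± 0.07 (adjusted p = 0.995). Pair 3 was closest, at 0.03 in both SODmn and TAUmn, and the difference of -0.38 (SE 0.14) had a limma adjusted p of 0.436, at -0.19 without SODmn pair 4. In glia its means were -0.05 ± 0.15 in SODgl and -0.03 ± 0.10 in TAUgl. Ubb gave only 2 values in SODmn, -0.36 and 0.69, which had opposite signs. Its means were -0.14 ± 0.26 in SODgl, -0.03 ± 0.27 in TAUmn (n = 3) and 0.11 ± 0.11 in TAUgl, with adjusted p from 0.722 to 0.995.

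The E1 and E2 members showed no call either. Ube2n read -0.32, 0.08, -0.20 and -0.13 in SODmn, with only pair 2 above 0, at a mean of -0.15 ± 0.17 (adjusted p = 0.529). Probe A_52_P146164 lay below 0 in all 4 SODmn pairs at the same mean of -0.15 ± 0.10 (limma adjusted p = 0.354 over all probes tested). In the other comparisons the Ube2n mean was 0.07 in SODgl, -0.03 in TAUmn and 0.02 in TAUgl. Uba1 was tested in SODgl only, where it read 0.02, -0.02, 0.05 and 0.01, at a mean of 0.01 ± 0.03 (adjusted p = 0.891).

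Sqstm1 (probe A_51_P119077, chr11:50043591-50043650, minus strand, mm8) was well above background in every extract. It read 0.17, 0.20, 0.09 and 1.06 in TAUgl, above 0 in all 4 pairs with pair 4 far above the rest, at a mean of 0.38 ± 0.46 (limma adjusted p = 0.295). Both arrays of pair 4 were high, at 1.21 and 0.91, while those of pair 1 read -0.53 and 0.88. Without pair 4 the TAUgl mean was 0.16. In SODgl Sqstm1 read -0.29, -0.17, 0.06 and -0.53, with only pair 3 above 0, at a mean of -0.23 ± 0.25 (adjusted p = 0.514). All SODgl values lay below all TAUgl values, as for 1 of 6 members and 1.13% of 7948 genes with a full set of pairs, and the difference of -0.62 (SE 0.22) had a limma adjusted p of 0.631. In motor neurons it read -0.58, 0.24, -0.33 and 0.07 in SODmn, 2 on either side of 0, and 0.12, 0.06, -0.03 and 0.46 in TAUmn.

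No member differed between comparisons after adjustment in any of the 4 differences tested (limma, same fit), in which 0% of genes were called over all genes. For Uchl1 the effect in TAUmn minus that in TAUgl was -0.95 (limma adjusted p = 0.955), from means of -0.04 and 0.90. SODgl minus TAUgl was -0.72 (limma adjusted p = 0.844), SODmn minus SODgl was -0.43 (adjusted p = 0.631) and SODmn minus TAUmn was -0.21 (adjusted p = 0.849). These sizes depended on the setting, with no call in any. SODgl minus TAUgl was -1.25 with scan as a fixed block (adjusted p = 0.144) and -0.47 without SODgl pair 2. SODmn minus SODgl was -1.39 under median centring and -0.17 without SODgl pair 4. SODmn minus TAUmn was -0.76 under median centring and -0.10 without TAUmn pair 1, and TAUmn minus TAUgl was -1.46 under median centring.

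Among the 128 other pathway genes tested in SODmn, 46 lay above and 82 below 0 (64.1% below, against 49.8% of all genes tested), with a median of -0.06. Above 0 were 76 of 117 in TAUmn (65.0%, against 46.4% of all genes, median 0.03), 68 of 98 in TAUgl (69.4%, against 51.1%, median 0.05) and 64 of 106 in SODgl (60.4%, against 57.4%, median 0.02). In each comparison 0 were called. An unadjusted p under 0.05 was found for 14 in SODmn (10.9%, near the 10.5% of all genes), 14 in SODgl (13.2%, below 16.2%), 3 in TAUmn (2.56%, below 4.22%) and 12 in TAUgl (12.2%, below 13.7%). Receptors and shuttles had 12 of 14 below 0 in SODmn (85.7%, against 49.8% of all genes), where Psmd4, a proteasome subunit that binds ubiquitin, was at -0.10 (adjusted p = 0.426). Of 27 E2 genes 18 were below 0 in SODmn (66.7%), with Ube2w at -0.18 (adjusted p = 0.253) and Ube2d3 at -0.37 (adjusted p = 0.406) below 0 in all 4 pairs. In TAUmn Ube2d3 was at 0.25, above 0 in all 4 pairs (adjusted p = 0.995). Among deubiquitinases, Usp11 lay below 0 in all 4 pairs of both glia comparisons, at -0.29 in TAUgl (adjusted p = 0.206) and -0.31 in SODgl (adjusted p = 0.0932). The segregase Vcp, which pulls ubiquitin-tagged proteins from complexes, was at -0.52 ± 0.10 in TAUgl, below 0 in all 4 pairs (adjusted p = 0.181). Tollip was at -0.43 in SODgl (adjusted p = 0.0941). Gabarapl1, an autophagosome protein bound by Sqstm1, was at 0.36 ± 0.10 in TAUgl (n = 3, adjusted p = 0.228) and -0.18 in SODgl (adjusted p = 0.411). Of 16 neuronal ligases tested in SODgl, 14 lay above 0 (87.5%, against 57.4% of all genes), with a median of 0.14.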

How the data were processed

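Laser-captured motor neurons and surrounding cells were measured on 2-colour Agilent arrays, each holding a transgenic mouse and its littermate. Spot intensities were deposited by the authors as scanner output of Agilent Feature Extraction 8.5.1.1 per the submitters' processing notes, while the file headers give 8.5.1.1 for motor neuron and 9.5.1.1 for glia arrays. Ratios deposited by the scanner are log10 of the red over the green channel, per the file headers. The authors' deposited series matrix, used as an alternative only, matched the scanner log10 ratios turned to transgenic over control (r 0.982 to 0.999, median 0).

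Mean signals were corrected by normexp (offset 50), which shrinks the ratios of dim probes, then normalized by loess within arrays and Aquantile between arrays in limma 3.58.1 (R 4.3.3). Control spots and outlier-marked spots were left out, and a pair with either array missing had no value. The 2 arrays of a pair, with dyes exchanged, were averaged as 1 replicate. Littermate pairs were taken as replicates per the labels. Log2 ratios of the 16 pairs, computed from the deposited intensities, were fitted together in 4 groups with eBayes over all genes, and levels of 16 control extracts were compared likewise between cell types. The test of a gene required 4 of the 8 extracts of a comparison, or of either cell type or comparison contrasted, to be well above background on both of their arrays, and p-values were adjusted over all genes tested (Benjamini-Hochberg, threshold 0.05). The script was tested on simulated data. The number of arrays limits the precision. Each array had a slide of its own, so slide could not be a block, and 6 scans were used as batches.

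All members were named, with at most 4 called genes of each pathway list, or the 2 of smallest p where none was called, and the 5 genes most like Uchl1, over 15 pairs since 1 Uchl1 pair had no value. Members and lists were chosen with earlier results of these data known. Uba1 carries an older symbol in the files and was found by its accession. Probe positions are in mm8 per the file headers. Alternatives covered background correction, normalization, filters, probe choice, scans, blocks, subsets of samples and the authors' values. Some genes that this rule selects are not reported here.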

Additional observations from a re-analysis of the deposited data

Results flagged for a closer look

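Of 96 groups of 4 values tested, 7 held a sample far from the other 3, where chance gives about 1 in 20. For Uchl1 these were the TAUmn ratio of pair 3 at -0.80 (nearest other pair 0.11), the SODmn level of extract 3 at 8.97 (nearest 12.45) and the nonSODmn level of extract 3 at 9.07 (nearest 12.87). Both extracts of SODmn pair 3 also had low levels of neuron, astrocyte and oligodendrocyte markers, as given above. The Sqstm1 ratio of TAUgl pair 4 was 1.06 (nearest 0.20), and both of its arrays were high. The Uchl3 ratio of TAUgl pair 1 was -0.13 (nearest 0.02), where the probe was too dim to be tested. The Uchl5 level of nonTAUmn extract 4 was 8.81 (nearest 8.26), and the Usp14 level of SODgl extract 2 was 5.98 (nearest 6.08). No cause was tested for any of them.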

How the results depend on the processing

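In the 4 transgenic comparisons and their 4 differences, 0 members were called (limma) under each setting run, 16 to 19 per comparison, while calls over all genes ran from 0 to 42 in SODmn, 0 to 13 in SODgl, 0 to 14 in TAUmn and 0 to 1 in TAUgl. Of the 7 members tested between control motor neurons and glia, 3 were called. This became 5 with no filter (of 9 tested, with Uba1 called lower in motor neurons), 1 with all 8 extracts required above background (of 4 tested), 5 with the mean of probes and 5 in transgenic extracts, again with Uba1 lower in motor neurons. Leaving out 1 control extract gave 2 to 6, with 6 only without nonSODmn extract 3. Over all settings of this comparison the calls over all genes ran from 1024 to 7290, against 5134 in the main one. With the replicate block 2 were called and Uchl5 had an adjusted p of 0.0707, and the block called 0 members in the differences. Same-numbered samples correlated at -0.11 to 0.49, not above 0.1 in every pair, so the numbers were not taken to pair the samples. Of 1187 single values under alternatives, 1116 were classed as unchanged. A called value was so classed if it stayed called with the same sign, whatever its size. An uncalled value had to stay uncalled and move by less than the SD of its pairs, or of its extracts between cell types. Among all values, 0 called values changed sign, and 91 values, none of them called, changed sign. The cause of these changes was not tested. Scan as a fixed block between motor neurons and glia was not run, since each scan held 1 cell type. The shared spread over tested genes and the choice of pairs by dye-swap correlation were added after seeing the data.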
